A study of Boehmeria nivea with 6 samples.

Results

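Leaf and stem of ramie (Boehmeria nivea), a perennial crop grown for its bast fibre, were compared across the genes of the deposited expression table. The comparison used 4 of the 6 RNA-seq libraries of the study: leaf and stem of the wild tenacissima accession QYZM, and leaf and stem of the cultivar ZSZ1. All plants were 30 days old, no treatment is named, and each organ of each variety had 1 library, so leaf and stem were paired within a variety. The root library of each variety was not part of the comparison and entered only the estimate of the spread and a description of levels. Values were FPKM, that is, the number of fragments assigned to a gene per unit of its length and of the library's size.

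A leaf is mostly photosynthetic mesophyll, with an epidermis and veins. A stem holds vascular tissue with lignified xylem, a growing cambium and, in ramie, long bast fibres that differentiate in the phloem and lay down thick cellulose walls. Transcripts of the photosynthetic apparatus are known to take a large part of the messenger RNA in leaves of flowering plants. The table gave genes by identifier alone and paired none with a name or product. Roles of single genes are therefore not given, and the organ labels could not be checked against marker genes.

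Of 20693 genes, 14155 reached 1 FPKM or more in 2 or more of the 4 leaf and stem libraries and were compared, and the other 6538 were not. At the edge of this filter, 116 genes had a second-highest value from 1 to below 1.1 FPKM and entered, and 170 genes had one from 0.9 to below 1 FPKM and did not. The medians of these genes were 0.828 FPKM in QYZM leaf, 0.468 in ZSZ1 leaf, 1.06 in stem of QYZM and 1.02 in stem of ZSZ1 for those inside, and 0.875, 0.46, 0.952 and 0.939 FPKM in the same order for those outside. Summed FPKM was 433435 in QYZM leaf, 306497 in ZSZ1 leaf, 390460 in stem of QYZM and 387807 in stem of ZSZ1, so the leaf libraries lay on both sides of the stem libraries. Read counts were not known. If whole fragments were counted, steps between values below 0.2 FPKM placed the 4 libraries at 0.905 to 1.13 times their mean depth, with both leaf libraries below both stem libraries.

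Most genes stood lower in leaf than in stem as deposited, and a smaller number stood much higher. Over the 14155 genes the median leaf minus stem difference on the log2(FPKM + 1) scale was -0.39 in QYZM and -0.78 in ZSZ1, with a mean over varieties whose median was -0.58. FPKM are relative to the library, so these values cannot show whether a gene had less RNA in leaf. In whole organs, fewer cells of a type and less RNA per cell cannot be told apart either. A positive difference was found in 32.5% of genes in QYZM and in 22.9% in ZSZ1. The shift was present at all levels of expression: in 10 equal bins of genes by mean level, the median difference ran from -0.45 in the lowest bin to -0.64 in the highest. Median-of-ratios scaling sets each library to the median gene and by construction brings the median near 0. It gave -0.01 in QYZM and -0.02 in ZSZ1, and moved the median over varieties from -0.58 to -0.02. The direction of a gene that lies between these scales therefore depends on the scale, and counts are given on both.

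Around its median, the difference was skewed toward leaf in both varieties and on both scales. As deposited, the highest 5% of differences began 2.66 above the median in QYZM and 2.64 in ZSZ1, on the log2 scale, and the lowest 5% began 1.73 and 1.72 below it. After scaling these distances were 2.64 and 2.69 above, and 1.75 and 1.81 below. Counted from the median, 1208 genes in QYZM and 1208 in ZSZ1 lay at least 4-fold toward leaf as deposited, and 510 and 480 lay at least 4-fold toward stem. At 16-fold from the median the numbers were 215 and 223 toward leaf against 80 and 51 toward stem. With 1 library against 1 in each variety, these are descriptions with no test.

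**Figure D1:**
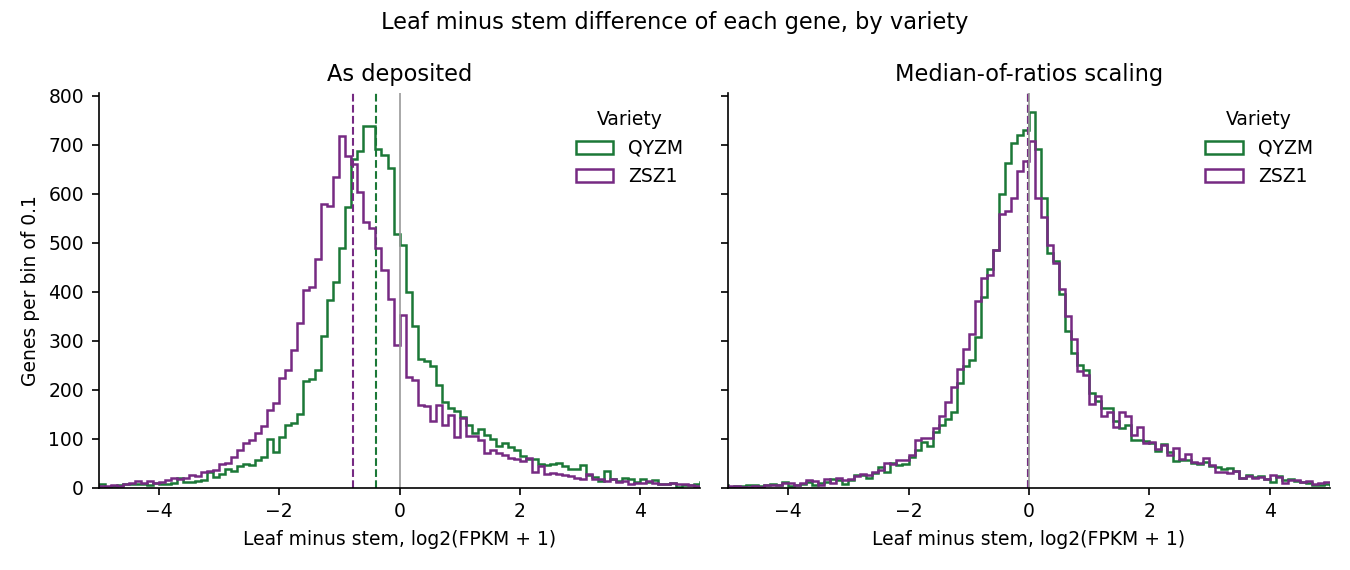
Number of genes (vertical axis, per bin of 0.1) by leaf minus stem difference on the log2(FPKM + 1) scale (horizontal axis, shown from -5 to 5) in QYZM (green) and ZSZ1 (purple), with dashed lines at the medians. As deposited the medians are -0.39 and -0.78, after median-of-ratios scaling -0.01 and -0.02, and on both scales the right side reaches farther than the left.

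The mean difference over both varieties was tested with a limma model holding organ and variety terms, fitted to all 6 libraries. Calls needed a p-value under 0.05 after Benjamini-Hochberg adjustment over all 14155 genes and a 2-fold or greater difference of FPKM + 1. As deposited, 4644 genes were called, or 32.8% of those tested, with 1276 higher in leaf (9.01%) and 3368 lower in leaf (23.8%). All called genes had the same sign in both varieties, which the test largely fixes, since a disagreement of the varieties enters its spread. The median log2 difference was 2.02 among the genes called higher and -1.55 among those called lower. After median-of-ratios scaling, 1860 genes were called higher (13.1%) and 1214 lower (8.58%). On both scales together, 1266 genes were called higher in leaf and 1214 lower. That 0 genes were called in opposite ways on the 2 scales was fixed in advance. Scaling moves a difference by less than the distance between the 2 calls. The spread rests on 2 residual degrees of freedom per gene, to which moderation added 3.92, and measures only how far these 6 libraries depart from additivity, since the labels do not give the number of plants behind a library. With either leaf library left out limma called 0 genes (5892 without that of QYZM and 4153 without that of ZSZ1 had an unadjusted p below 0.05). It called 2385 without QYZM stem and 1669 without ZSZ1 stem.

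Size classes asked for the same fold in both varieties, which share no library. At least 2-fold on FPKM + 1 as deposited, 1247 genes were higher in leaf in both varieties (8.81% of those compared) and 2709 were lower (19.1%). At 4-fold there were 495 higher (3.5%) and 571 lower (4.03%). At 16-fold the order was turned, with 84 higher (0.593%) and 59 lower (0.417%). The size at which it turned depended on the added 1. With 0.1 added to FPKM instead, 175 genes were higher and 181 lower at 16-fold. With 5 added, 288 were higher and 212 lower already at 4-fold. After median-of-ratios scaling the leaf-higher genes were the more numerous at each of the 3 sizes, with 1994 against 1303 at 2-fold (14.1% and 9.21%), 851 against 315 at 4-fold (6.01% and 2.23%) and 141 against 38 at 16-fold (0.996% and 0.268%). All 495 leaf-higher genes of the 4-fold class kept their place after scaling, which was fixed in advance. The size factors were 0.895 and 0.601 in leaf and 1.21 and 1.13 in stem of QYZM and ZSZ1. Scaling therefore lowered no leaf minus stem difference, and genes could leave the leaf-lower class only. Of the 571 leaf-lower genes, 315 kept their place.

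The leaf-higher class consisted of more abundant genes than the leaf-lower class. The 495 genes at least 4-fold higher in leaf had medians of 55.5 FPKM in leaf of QYZM and 48.2 in leaf of ZSZ1, against 4.93 FPKM in stem of QYZM and 4.17 in stem of ZSZ1. The 571 genes at least 4-fold lower in leaf had medians of 26.5 FPKM in stem of QYZM and 28.3 in stem of ZSZ1, against 2.49 FPKM in leaf of QYZM and 1.79 in leaf of ZSZ1. Genes of the leaf-higher class made up 0.494% of the lowest bin, 2.19% to 3.32% of the second to eighth bins, 4.95% of the ninth and 9.11% of the highest. The leaf-lower class was most frequent in the fourth bin, at 6.15%, and stood at 4.31% in the highest. After scaling, 15.5% of genes in the highest bin were leaf-higher and 2.47% leaf-lower. A gene of low level can reach 4-fold on FPKM + 1 less easily, which limits both classes in the lowest bin.

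**Figure D2:**
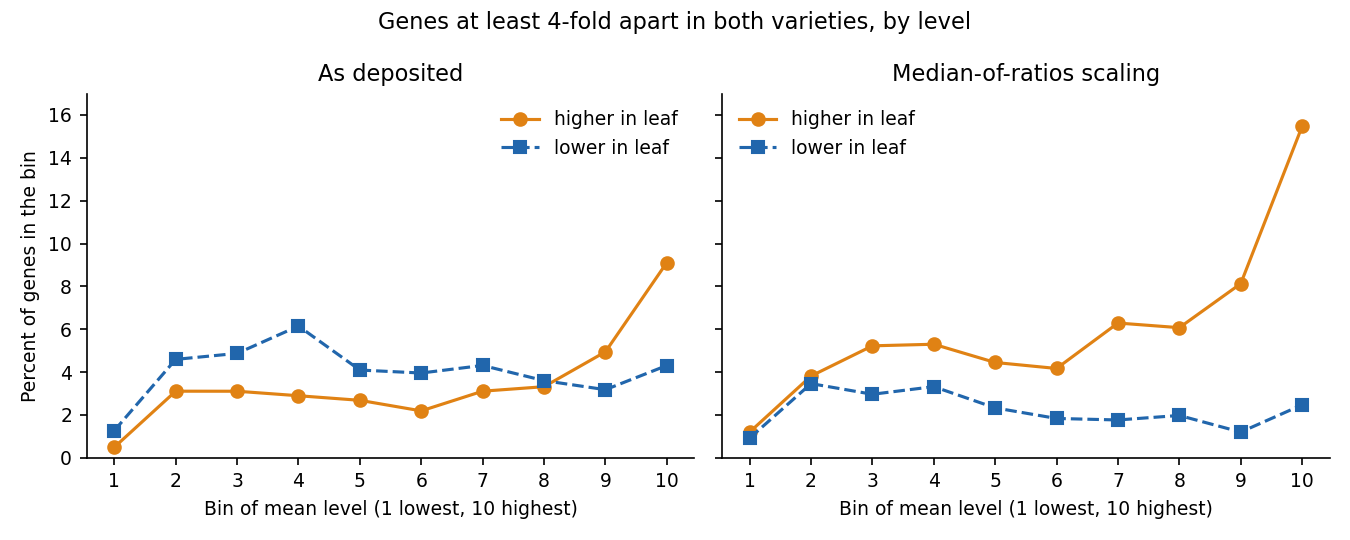
Percent of genes at least 4-fold higher (circles) or lower (squares) in leaf than in stem in both varieties (vertical axis), in 10 equal bins of genes by mean log2(FPKM + 1) over the 4 libraries (horizontal axis). The leaf-higher share is greatest in the highest bin, at 9.11% as deposited and 15.5% after scaling, while the leaf-lower share is 4.31% and 2.47% there.

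Transcript abundance was concentrated in fewer genes in leaf than in stem, in both varieties. The 10 highest genes held 10.99% of summed FPKM in leaf of QYZM and 11.9% in leaf of ZSZ1, against 4.79% in stem of QYZM and 5.58% in stem of ZSZ1. The first 50% of the total was reached with 479 genes in leaf of QYZM and 468 in leaf of ZSZ1, against 1060 in stem of QYZM and 957 in stem of ZSZ1. The leaf and stem values did not overlap in either measure. Shares within a library do not depend on how the libraries are scaled.

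**Figure D3:**
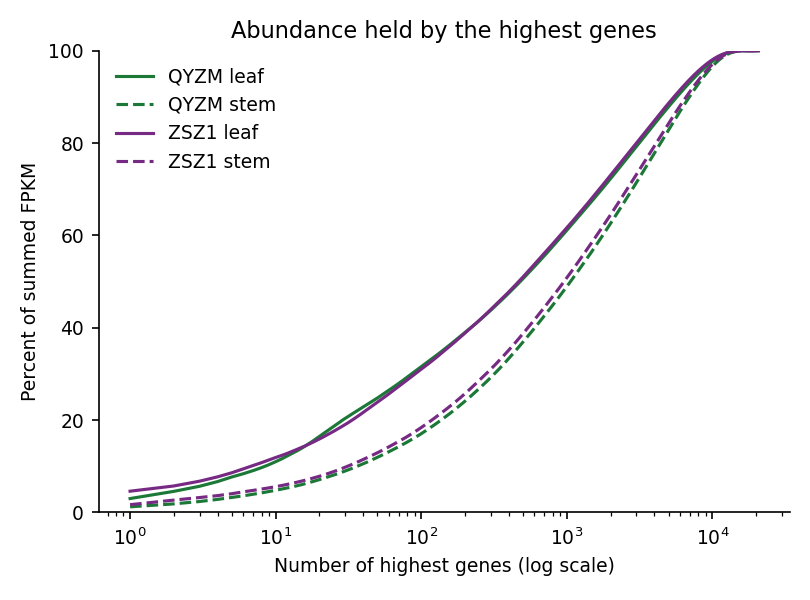
Percent of summed FPKM (vertical axis) held by the highest genes of each library (horizontal axis, log scale, number of genes), for leaf (solid) and stem (dashed) of QYZM (green) and ZSZ1 (purple). Both leaf curves run above both stem curves, with 10.99% and 11.9% against 4.79% and 5.58% at the 10 highest genes.

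The gains in share from stem to leaf summed to 45.0% of the total in QYZM and 46.6% in ZSZ1. Genes expressed in both organs enter this sum by their change of share. The gain was narrow and the loss broad. It took 56 genes in QYZM and 71 in ZSZ1 to make up 50% of the gain, and 519 and 463 genes to make up 50% of the loss. Of the genes whose share differed at all, 70.4% in QYZM and 68.7% in ZSZ1 had the smaller share in leaf. The 495 leaf-higher genes of the 4-fold class held 24.2% of the total in leaf of QYZM and 29.6% in leaf of ZSZ1, but 1.92% and 1.87% of the stem totals. The 571 leaf-lower genes held 11.7% in stem of QYZM and 12.4% in stem of ZSZ1, and 1.07% and 1.25% of the leaf totals.

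The most abundant genes of leaf were in large part genes much lower in stem, whereas the most abundant genes of stem were more often well expressed in leaf too. Among the 100 highest genes of each library, 82 were common to both leaf libraries and 71 to both stem libraries, 18 to 25 were common to a leaf and a stem library, and 17 were in all 4 lists. Of the 82 leaf genes, 46 were at least 4-fold and 70 at least 2-fold higher in leaf than in stem in both varieties, with medians of 840.7 and 722.1 FPKM in QYZM and ZSZ1 leaf against 118 and 132 FPKM in stem. Of the 71 stem genes, 16 were at least 4-fold and 44 at least 2-fold higher in stem, with medians of 577 and 597 FPKM in QYZM and ZSZ1 stem against 240 and 187 FPKM in leaf. After scaling, 70 of the 82 and 9 of the 71 were at least 4-fold apart. These genes were picked for being high in that organ, so their direction carries no test. The 82 leaf genes held 28.6% and 28.7% of the leaf totals and 5.43% and 6.24% of the stem totals. The 71 stem genes held 13.7% and 14.6% of the stem totals and a like part of the leaf totals, 13.9% and 13.5%. This part does not describe a typical gene of the 71, as their medians were lower in leaf. Among the 71, Bnt09G013688 alone held 3.01% and 4.6% of the leaf totals and Bnt04G005746 held 1.56% and 0.857%. As deposited, 58 of the 71 were higher in stem than in leaf in both varieties and 12 were lower.

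The genes with the greatest change of share were named from those called, so that each passed the test by choice. The greatest gain was that of Bnt09G013688, the highest gene of both leaf libraries, with 13029 FPKM in leaf of QYZM and 14100 in leaf of ZSZ1 against 423 in stem of QYZM and 377 in stem of ZSZ1. Its share was 3.01% and 4.6% of the leaf totals and 0.108% and 0.0973% of the stem totals, and it was higher in leaf by 5.08 ± 0.95 (SE) on the log2(FPKM + 1) scale (limma adjusted p = 0.0141). Leaf and stem were far apart in both varieties, and its root values of 86.2 and 6.12 FPKM lay below both. Bnt04G005746 followed, with 6773 FPKM in leaf of QYZM and 2627 in leaf of ZSZ1 against 836 in stem of QYZM and 979 in stem of ZSZ1, a log2 difference of 2.22 ± 0.60 (SE; limma adjusted p = 0.0362). The organs did not overlap, but the difference was 3.02 in QYZM and 1.42 in ZSZ1, and the call was lost without QYZM stem (1.34, limma adjusted p = 0.186), in a fit to the 4 leaf and stem libraries alone (2.22, limma adjusted p = 0.0576) and under quantile normalization (1.13, limma adjusted p = 0.211).

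The greatest losses of share in leaf were those of the highest and second-highest genes of both stem libraries. Bnt02G002335 stood at 4742 FPKM in stem of QYZM and 6513 in stem of ZSZ1 against 183 in leaf of QYZM and 229 in leaf of ZSZ1, a log2 difference of -4.76 ± 1.12 (SE; limma adjusted p = 0.0253). It took 1.21% and 1.68% of the stem totals against 0.0421% and 0.0746% of the leaf totals. Bnt05G008345 stood at 2500 FPKM in stem of QYZM and 3859 in stem of ZSZ1 against 783 in leaf of QYZM and 562 in leaf of ZSZ1, a log2 difference of -2.22 ± 0.62 (SE; limma adjusted p = 0.0396). The 2 genes were higher in both stems than in either leaf, yet both calls were lost after median-of-ratios scaling, at -4.09 and -1.56 (limma adjusted p = 0.0771 and 0.101); with ZSZ1 stem left out they were lost at -3.60 and -1.52 (limma adjusted p = 0.0867 and 0.208). In a fit to the 4 leaf and stem libraries alone both genes were called (limma adjusted p = 8.58e-05 and 0.0346). With scaling in that fit, Bnt02G002335 was still called (limma adjusted p = 0.00445) and Bnt05G008345 was not (limma adjusted p = 0.0563). The root values of the 2 genes differed widely between varieties, at 220 and 12.5 FPKM for Bnt02G002335 and 640.2 and 298 FPKM for Bnt05G008345.

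Few genes were near 0 in one organ and present in the other. Below 0.1 FPKM in both stem libraries and at 1 FPKM or more in both leaf libraries stood 63 genes (0.445% of those compared), and 105 genes (0.742%) showed the reverse. These counts are as deposited. After median-of-ratios scaling they were 86 and 84, so the excess of genes near 0 in leaf depends on the scale. Of the 63 genes, 22 were listed at exactly 0 in both stems, and of the 105, 70 were listed at 0 in both leaves. What a listed 0 stands for is not known, and leaf libraries listed more genes at 0 in general, 21.3% and 21.7% of all genes against 17.2% and 18.3% in stem. The part of this in the count of genes near 0 in leaf was not tested. Most of these genes were low in the other organ too, with a median of 4.48 FPKM in leaf for the 63 and 4.16 FPKM in stem for the 105. At least 10 FPKM was reached in both libraries of the other organ by 13 and 22 genes, and at least 100 FPKM by 2 and 2. Together the 63 genes held 0.37% and 0.405% of the leaf totals and the 105 genes 0.751% and 0.446% of the stem totals.

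The choice held in part from one variety to the other. For this reading genes were chosen from all 20693, so genes outside the 14155 compared could enter. Chosen in QYZM alone, 227 genes were near 0 in stem and present in leaf, of which 27.8% met the same rule in ZSZ1 and 61.7% were near 0 in ZSZ1 stem. For genes near 0 in leaf and present in stem of QYZM, 344 in number, 30.5% met the rule in ZSZ1 and 68.6% were near 0 in ZSZ1 leaf. Among all genes, 18.3% were listed at 0 in ZSZ1 stem and 21.7% in ZSZ1 leaf. Those shares leave out genes above 0 and below 0.1 FPKM. Chosen in ZSZ1 alone, 159 and 292 genes gave 39.6% and 36.0% that met the rule in QYZM.

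The highest genes of these 2 sets were named. They were chosen for being near 0 in one organ and high in the other, so their leaf and stem values are a description, with no test. Bnt05G008072 had 512 FPKM in leaf of QYZM and 415 in leaf of ZSZ1 and was listed at 0 in both stems, a log2 difference of 8.85. Bnt02G003072 had 293 FPKM in leaf of QYZM and 241 in leaf of ZSZ1, whereas its stem values were 0.0173 and 0.0184 FPKM, a log2 difference of 8.03. Both genes were also low in root, at no more than 0.309 FPKM.

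Of the genes near 0 in leaf, Bnt07G011851 was listed at 0 in both leaves and stood at 910 FPKM in stem of QYZM and 522 in stem of ZSZ1, a log2 difference of -9.43. Bnt13G018372 was at 0.0248 FPKM in leaf of QYZM and listed at 0 in leaf of ZSZ1, with 319 FPKM in stem of QYZM and 45.6 in stem of ZSZ1, a log2 difference of -6.91. Unlike the pair near 0 in stem, both were present in root, the first at 188 FPKM in QYZM and 29.4 in ZSZ1 and the second at 268 and 324 FPKM. Where libraries are listed at 0 or near it, the size of the log2 difference depends on the added 1.

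**Figure D4:**
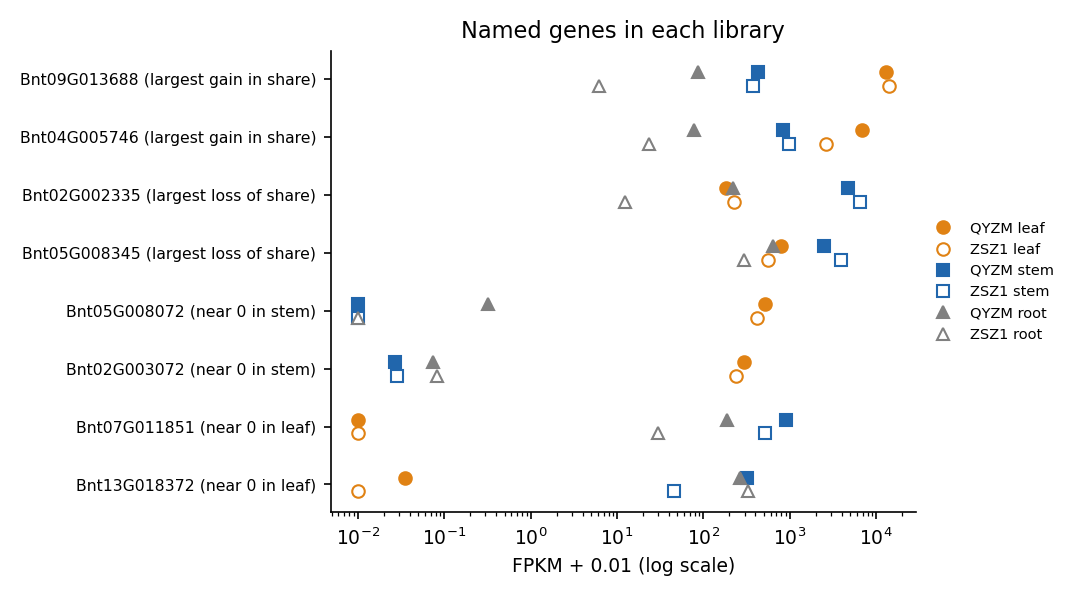
FPKM + 0.01 (horizontal axis, log scale) of 8 genes named in the text in leaf (circles), stem (squares) and root (triangles) of QYZM (filled) and ZSZ1 (open), each point 1 library; a listed 0 lies at 0.01. Leaf and stem symbols do not overlap for any of the 8 genes, which their choice largely fixes. The genes near 0 in stem are also low in root while those near 0 in leaf are not.

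Root values, which the choice of classes did not use, differed between the 2 directions. The 495 genes at least 4-fold higher in leaf than in stem were for the most part low in root as well, with medians of 2.72 FPKM in QYZM root and 2.27 in ZSZ1 root, or 4.25% and 3.16% of the leaf value gene by gene. Root lay below stem in 339 of the 495 in QYZM (68.5%) and in 348 in ZSZ1 (70.3%), against 52.7% and 52.5% of all compared genes. The 571 genes at least 4-fold lower in leaf than in stem had medians of 14.0 FPKM in QYZM root and 8.32 in ZSZ1 root, or 52.8% and 29.9% of the stem value. Root lay below leaf in 24 of the 571 in QYZM (4.2%) and in 65 in ZSZ1 (11.4%), against 36.0% and 28.0% of all compared genes, and at or above stem in 118 and 109. Choosing genes for a high value in 1 organ lowers such percentages by itself. Choosing them for a low value in the other organ also lowers the share of genes with root below it. All compared genes are therefore not an equal reference. Over all compared genes root stood at a median of 132% and 183% of leaf, and at 96.4% and 95.4% of stem, in QYZM and ZSZ1.

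The genes near 0 in one organ showed a like split. Of the 63 near 0 in stem, 23 were also below 0.1 FPKM in both roots and 5 were at 1 FPKM or more in both. Of the 105 near 0 in leaf, 7 were below 0.1 FPKM in both roots and 50 at 1 FPKM or more in both. No share over all compared genes is given beside these counts, and the choice of the genes by level may shape them. Root was higher than the organ in which the gene was present, in both varieties, for 2 of the 63 and 10 of the 105.

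The differences of the 2 varieties were closely related across genes. The leaf minus stem differences on the log2(FPKM + 1) scale had a Pearson correlation between varieties of r = 0.832 and a Spearman correlation of 0.799 over 14155 genes as deposited, and of 0.834 and 0.801 after scaling. Genes are not independent replicates, and the leaf and stem values of a variety may share plants and handling, so no p is given. The gap between the varieties, QYZM difference minus ZSZ1 difference, had a median of 0.37 as deposited and -0.01 after scaling. Within 1 log2 unit of that median lay 87.6% of genes as deposited and 87.4% after scaling. Over all compared genes the direction was the same in both varieties for 12003 (84.8%) as deposited and for 80.3% after scaling. Where both varieties differed by 2-fold or more, the direction was shared in 3956 of 4019 genes (98.4%). At 4-fold this was 1066 of 1075 and at 16-fold 143 of 144.

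Genes chosen by size in one variety were then read in the other. As deposited, 873 genes were at least 4-fold higher in leaf in QYZM, with a median log2 difference of 2.84. In ZSZ1 the same genes had a median of 2.16, with 93.7% in the same direction, 83.2% at least 2-fold and 56.7% at least 4-fold. The 794 genes at least 4-fold lower in leaf in QYZM went from a median of -2.62 to -2.61 in ZSZ1, with 71.9% at least 4-fold lower there. In the reverse reading, the 629 leaf-higher genes of ZSZ1 had 78.7% at least 4-fold higher in QYZM, and the 1364 leaf-lower genes of ZSZ1 had 41.9% at least 4-fold lower in QYZM. After median-of-ratios scaling these percentages were closer to each other: the leaf-higher lists of 1164 and 1226 genes shared 73.1% and 69.4% of their members, and the leaf-lower lists of 524 and 576 genes shared 60.1% and 54.7%. No correction was made for choosing genes on single libraries.

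A small number of genes ran in opposite directions in the varieties. At least 2-fold apart in each as deposited, 43 of 14155 genes were higher in leaf in QYZM and lower in leaf in ZSZ1, and 20 showed the reverse. After median-of-ratios scaling the counts were 29 and 23, so the excess of the first pattern depends on the scale. On both scales, 22 and 17 genes showed these patterns. Bnt06G009161 had 2777 FPKM in QYZM leaf and 205 in QYZM stem, but was listed at 0 in ZSZ1 leaf with 167 FPKM in ZSZ1 stem. The 2 stems were alike and the 2 leaves stood at opposite ends. Bnt10G015208 was at 1.52 FPKM in QYZM leaf and 59.6 in QYZM stem, but at 17.02 FPKM in ZSZ1 leaf and 0.0955 in ZSZ1 stem. Its organs changed places between the varieties. A difference between varieties in a single organ pair has no replicate here and was not tested.

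**Figure D5:**
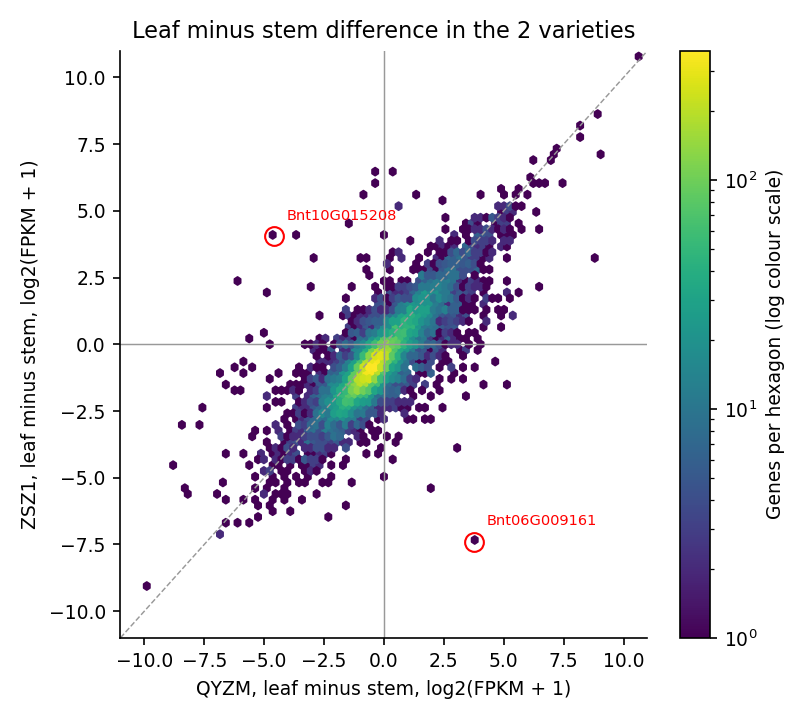
Leaf minus stem difference on the log2(FPKM + 1) scale in QYZM (horizontal axis) and ZSZ1 (vertical axis) for 14155 genes as deposited, with colour for the number of genes per hexagon (log scale), a dashed line of equal difference and red circles on 2 genes with opposite directions. Most genes lie along the dashed line and below it (r = 0.832), as the median gap of 0.37 between the varieties gives.

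Both directions were spread over all identifier prefixes. The identifiers carry 1 of 14 numbered prefixes or the prefix Un, and run in unbroken number order. Genes at least 4-fold higher in leaf in both varieties made up 2.33% to 4.23% of the compared genes of a numbered prefix, and those lower made up 2.48% to 4.94%. Where the next identifier was also compared, it belonged to the same class for 24 of 367 leaf-higher genes (6.54%, against 3.5% of all compared genes) and for 33 of 411 leaf-lower genes (8.03%, against 4.03%). It belonged to the opposite class for 13 and 12. No run of consecutive identifiers in one class was longer than 3. Over 10328 pairs of consecutive identifiers the mean leaf minus stem differences had a Spearman correlation of 0.07, a weak relation given as a description. Whether consecutive identifiers are near-identical copies that share reads cannot be read from the table.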

How the data were processed

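RNA was extracted separately for each of the 6 samples and made into 1 library each, per the labels' protocols. The authors deposited a table of FPKM values for 20693 genes. Bowtie2 and RSEM are named without versions or roles, per the submitters' processing notes. The assembly, the annotation and the use of strand are not given in the sources used, and reads shared by near-identical genes could have been split. Depth is unknown, so no counting interval is given. Relative depth came from peaks of the log2 ratio of values below 0.2 FPKM (largest residual 0.02 on the log2 scale).

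Differences were computed on log2(FPKM + 1), which understates changes of low genes. limma 3.58.1 in R 4.3.3 was fitted to all 6 libraries with organ and variety terms and a mean-variance trend. The variety term is the pairing of leaf with stem. The fit was run on simulated independent values, with variances taken from the fit itself and known changes in leaf. No shift of a whole library was simulated, so that run does not show how the fit handles one. Size factors for median-of-ratios scaling came from 14813 genes above 0 in all 6 libraries. Descriptions used Python 3.11.15, numpy 2.4.6, pandas 2.3.3, scipy 1.17.1 and matplotlib 3.10.9. The comparison and its classes were chosen with earlier results of these data known. Named genes were the 2 called genes with the greatest gain and the 2 with the greatest loss of share in leaf, the 2 highest genes near 0 in each organ, and 1 gene of each opposite pattern. Alternatives were other pseudocounts, filters, scalings, moderation, fold thresholds and near-0 limits, no variety term, the 4 libraries alone, and leaving out each library.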

Additional observations from a re-analysis of the deposited data

Results flagged for a closer look

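In 2 genes the leaf and stem libraries of one variety stood in the opposite order to those of the other, and the difference between the varieties was not tested. For Bnt06G009161 the leaf minus stem difference on the log2(FPKM + 1) scale was 3.75 in QYZM and -7.39 in ZSZ1. The latter rests on a listed 0 in ZSZ1 leaf and depends on the added value, with -10.71 at a pseudocount of 0.1 and -5.10 at 5. The gene was also listed at 0 in QYZM root and stood at 99.99 FPKM in ZSZ1 root. For Bnt10G015208 the difference was -4.59 in QYZM and 4.04 in ZSZ1, and its root values were 1.70 and 5.10 FPKM. After median-of-ratios scaling the differences were 4.18 and -7.22 for the first gene and -4.22 and 4.76 for the second. Both genes were picked from 14155 for this opposition.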

How the results depend on the processing

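The fit with median-of-ratios scaling on the 4 leaf and stem libraries alone was added after the results were seen. The number of called genes moved more than 1.5 times from 4644 (1276 higher and 3368 lower in leaf) under the settings below. The cause was not tested, beyond the libraries or genes that a setting itself removes. A pseudocount of 5 gave 2871 (1910 lower), median-of-ratios scaling 3074 (1214 lower), quantile normalization 1587 lower, no filter on low values 2169 lower, and a fold threshold of 4 gave 1548 (651 higher, 897 lower). The 4 libraries alone with scaling, paired by variety as replicate block, gave 2274 higher and 1609 lower. Leaving out 1 library gave 0 to 5640 called genes, 0 to 1607 higher and 0 to 4034 lower. The 0 arose without either leaf library, where 1 residual degree of freedom from root and stem remained and the smallest limma adjusted p was 0.0676 and 0.0753. The lone leaf or stem library is assumed to vary as the others do. Of the called genes, 27.5% were higher in leaf, with 60.5 after median-of-ratios scaling, 51.7 under quantile normalization, 42.1 at a fold threshold of 4, 50.1 without ZSZ1 stem and 58.6 for the added fit.

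Median-of-ratios scaling moved the median difference to -0.019. The classes at least 2-fold apart became 1994 higher and 1303 lower with scaling, and 1365 lower with a pseudocount of 5. At 4-fold they became 851 and 315 with scaling, 288 and 212 with a pseudocount of 5, and 1051 lower with 0.1. At 16-fold they became 141 and 38 with scaling, 131 and 98 with a total of 1000000, 175 and 181 with a pseudocount of 0.1, and 37 and 13 with 5. The range of the median difference over bins of level was 0.19, and 0.64 with no filter. Genes near 0 in stem numbered 22 if listed at exactly 0, 178 below 0.5 FPKM, and 13 with at least 10 FPKM in leaf, and genes near 0 in leaf numbered 325 and 22 under the last 2 settings. The highest 10 and 1000 genes held, as a mean of both varieties, 11.4% and 61.4% of the total in leaf and 5.19% and 49.9% in stem, against 31.3% and 17.7% for the highest 100. The correlation between varieties was 0.79 to 0.846 over 6 alternatives. Within 1.5 times of the reported count stayed 5640 calls for the 4 libraries alone as deposited, with the replicate block, and 3287 with no variety term (no replicate block). Each of the 4 genes named for its change of share kept its direction under all 20 alternatives, which the choice of genes with the same sign largely fixes, and lost its call without either leaf library. Bnt09G013688 lost its call under no other alternative, Bnt02G002335 under 3 and Bnt04G005746 and Bnt05G008345 under 5 each.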
